A study of Mus musculus with 6 samples.

Results

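Partly methylated clusters are short stretches of the mouse genome in which neighbouring CpG cytosines carried an intermediate level of methylation, neither close to 0 nor close to full. They were found by taking the autosomal cytosines with a methylation level in all 6 libraries, joining neighbours at most 100 bp apart, keeping runs of at least 5 cytosines, and keeping the runs whose mean level over the 5 libraries other than the Dnmt1 knockdown was above 20% and below 60%. Of 22524 runs, 1634 (7.25%) met this rule, against 17197 low runs at or below 20% and 3693 highly methylated runs at or above 60%. The members held 12130 cytosines, covered 209372 bp and lay on all 19 autosomes, from 36 on chromosomes 16 and 18 to 158 on chromosome 7. The levels in 5 of the 6 libraries chose the members, so those levels describe the set. The level in the Dnmt1 knockdown library took no part in the choice, though a cytosine had to be listed there too. With cytosines listed in the other 5 libraries, a choice added after the data were seen, there were 2173 members.

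The libraries came from E14, a mouse embryonic stem cell line, and were made by reduced representation bisulfite sequencing, in which MspI cuts DNA at CCGG and bisulfite turns unmethylated cytosine into uracil. Each group was 1 library: a control short hairpin RNA (shRNA), and shRNAs against Dnmt1, Dnmt3a, Dnmt3b, Dnmt3a and Dnmt3b together, and Tet1 and Tet2 together. The labels give no clone, passage, days of knockdown or remaining target level, and 1 title writes Dnmt1a where the treatment field has Dnmt1. With 1 library per group no difference between conditions has a replicate check, and no test was made. An SD over the 19 autosomes describes how even a value was along the genome, not how it would vary between cultures.

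DNA methyltransferase 1 (DNMT1) copies methylation to the new strand after replication, DNMT3A and DNMT3B add methyl groups to unmethylated CpGs, and TET enzymes oxidise 5-methylcytosine. An intermediate level in a cell population can stand for 1 methylated and 1 unmethylated allele, as at imprinted regions, for a mixture of cells, or for CpGs whose state keeps changing. Bisulfite sequencing counts 5-methylcytosine and 5-hydroxymethylcytosine alike as methylated, and reads 5-formylcytosine and 5-carboxylcytosine as unmethylated. In embryonic stem cells, intermediate methylation is known from imprinted regions and from the shores of CpG islands.

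The sequences below show what such runs look like at the base level. They are the bases upstream of the transcription start that a member covered, from RefSeq (GRCm38.p6), written 5′ to 3′ in the direction of the gene, with the CpGs that had a level in all 6 libraries in capitals. The first set holds genes of the germ line, whose members lay across or next to the start: Slc25a31, the ADP/ATP carrier of the testis (chr3:40708670-40708863, plus strand), Hormad1, a protein of the meiotic chromosome axis (chr3:95559555-95559673, plus strand), Mael, which acts in transposon silencing (chr1:166238769-166238810, minus strand), Topaz1, a factor of spermatogenesis (chr9:122747106-122747161, plus strand), and Tmprss12, a testis serine protease (chr15:100280775-100280829, plus strand). The second set shows other kinds of member: Csf2ra, a receptor subunit for GM-CSF, with a sharp edge (chr19:61228508-61228640, minus strand), Lep, which encodes leptin, with an even level (chr6:29060003-29060164, plus strand), and 30 bases of the imprinted Commd1/Zrsr1 region (chr11:22972968-22972997, minus strand). None of the stretches other than that of Commd1 overlapped an annotated gene range.
Slc25a31: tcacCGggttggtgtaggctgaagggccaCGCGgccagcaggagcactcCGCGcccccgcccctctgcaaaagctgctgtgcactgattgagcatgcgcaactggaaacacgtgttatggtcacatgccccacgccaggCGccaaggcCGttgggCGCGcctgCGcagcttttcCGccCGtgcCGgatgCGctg
Hormad1: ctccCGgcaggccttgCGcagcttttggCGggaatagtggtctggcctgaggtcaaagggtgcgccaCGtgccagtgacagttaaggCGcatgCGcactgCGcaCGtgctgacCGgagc
Mael: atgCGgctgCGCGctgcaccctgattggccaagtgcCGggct
Topaz1: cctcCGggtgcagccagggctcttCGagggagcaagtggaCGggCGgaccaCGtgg
Tmprss12: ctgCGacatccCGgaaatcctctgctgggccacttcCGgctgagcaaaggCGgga
Csf2ra: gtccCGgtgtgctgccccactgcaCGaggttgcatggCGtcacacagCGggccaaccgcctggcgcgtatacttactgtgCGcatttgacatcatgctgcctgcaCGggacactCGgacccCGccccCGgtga
Lep: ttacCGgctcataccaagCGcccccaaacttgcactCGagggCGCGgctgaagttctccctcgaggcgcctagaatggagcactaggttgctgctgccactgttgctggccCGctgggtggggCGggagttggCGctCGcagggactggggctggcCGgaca
Commd1: tcacCGgCGtgtttgCGcaatgcagcaacc

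In the control library members averaged 43.8% ± 1.44 (SD over 19 autosomes). It was 8.06% ± 0.75 after Dnmt1 knockdown, 27.1% ± 1.23 after Dnmt3a knockdown, 46.2% ± 1.19 after Dnmt3b knockdown, 31.1% ± 1.37 after the double Dnmt3 knockdown and 49.6% ± 1.72 after the Tet1 and Tet2 knockdown. The libraries thus stood in the order Dnmt1, Dnmt3a, Dnmt3a and Dnmt3b, control, Dnmt3b, Tet1 and Tet2, and the control and Dnmt3b values were closest. Single members varied around this order of the means. The Dnmt1 library was the lowest of the 6 in 1607 members, the Dnmt3a library was the lowest of the other 5 in 1235 (75.6%), and the Tet1 and Tet2 library was the highest of the 6 in 1007, against 454 for Dnmt3b and 167 for the control. The members spread over the whole of the chosen range, with 444 between 20% and 30%, 402 between 30% and 40%, 383 between 40% and 50% and 405 between 50% and 60%.

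**Figure D1:**
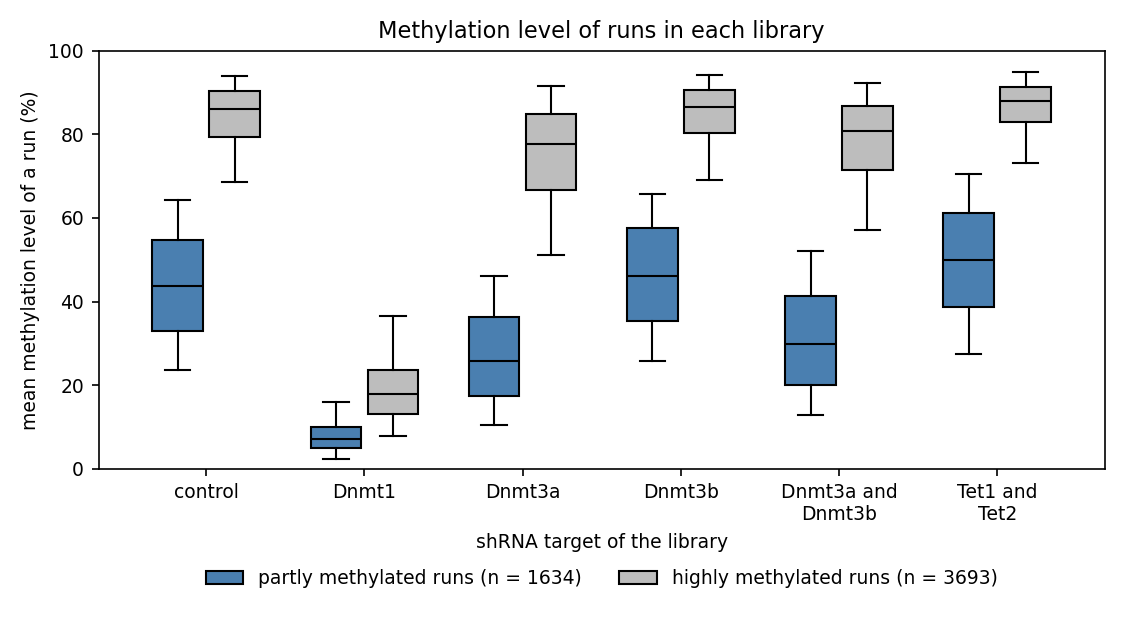
Mean methylation level of each run (vertical axis, %) in each library (horizontal axis) for the 1634 partly methylated and the 3693 highly methylated runs; boxes span the quartiles with the median as a line, and whiskers reach from the 5th to the 95th percentile. The blue boxes of the partly methylated runs lie lowest in the Dnmt1 library, where the median is 7.10%, and are lower in the Dnmt3a library (25.9%) than in the control (43.7%).

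The bounds of the rule fell between runs of nearly the same mean level. The members just inside the lower bound, chr16:29680692-29680814 and chr1:130337085-130337212 (mm9), had rule levels of 20.004% and 20.03%, and the runs just outside, chr19:44835142-44835316 and chr3:51169105-51169242, had 20% and 19.9%. At the upper bound, chr11:119955029-119955163 and chr11:50964013-50964052 had 59.98%, and chr15:76007807-76007929 and chr6:83318001-83318128 had 60.1%. The first 2 differed otherwise: chr11:119955029-119955163 was even, with cytosines from 56.4% to 65.3%, and chr11:50964013-50964052 was uneven, with cytosines from 0% to 89.0%.

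The members were small: a median of 6 cytosines over 125 bp, at most 47 cytosines, and 533 of them with the minimum of 5. Their CpG cytosines were spaced at a median of 5.59 per 100 bp, between the 9.78 of low runs and the 4.88 of highly methylated runs. Their share of cytosines inside CCGG, 28.5%, likewise lay between 17.5% in low runs and 32.0% in highly methylated runs. Within 1000 bp, 307 members (18.8%) had another run, and of the 330 neighbours 164 were low, 124 were partly methylated and 42 were highly methylated. Neighbours of low runs were low in 98.4% of cases and neighbours of highly methylated runs were highly methylated in 75.8%. Neighbours of members were partly methylated in 37.6%. Only 23 members had a run within 1000 bp on both sides. Of these, 2 lay between a low and a highly methylated run and 4 between low runs.

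Levels often differed between the cytosines of a member. The SD over the cytosines of a member had a median of 11.3 percentage points on the mean of the 5 libraries, and the highest and lowest cytosines were a median of 31.3 points apart. The residual SD of 1 cytosine in 1 library, after the run's level in that library and the cytosine's own mean were taken out, was 7.05 points, which gives 3.15 points for a mean of 5 libraries. The typical spread within a member was therefore larger than this scatter. Deviations of cytosines from the mean of their run were alike between libraries: Pearson's r over 12130 cytosines was 0.83 between the control and Dnmt3b libraries, 0.78 between control and Dnmt3a, and 0.46 between the Dnmt1 library and the mean of the other 5. These r values are descriptions, since cytosines of a run share reads.

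Each member was given a shape from its profile averaged over the 5 libraries. Even members, with an SD over cytosines of at most 10 points, numbered 615 (37.6%). Graded members, where a straight line explained at least 50% of the variance and spanned at least 20 points, numbered 284 (17.4%). Members with a sharp edge, where a split left sides at least 40 points apart and explained at least 75% of the variance, numbered 32 (1.96%). The remaining 703 (43.0%) met none of these limits and were called uneven. On the control profile alone, 377 of the even, 183 of the graded, 21 of the sharp-edged and 622 of the uneven members kept their shape.

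Near-50% members were rarer than the level alone shows. Of the 615 even members, 255 had a mean level between 40% and 60%, and in 215 of these every cytosine lay between 30% and 70%. Only 8 of the 255 stayed between 40% and 60% in each of the 5 libraries, and 130 stayed between 30% and 70%. The Dnmt3a level was between 40% and 60% in 83 of the 255, and the control level in 173. A level held near 50% across libraries was thus an exception among even members.

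**Figure D2:**
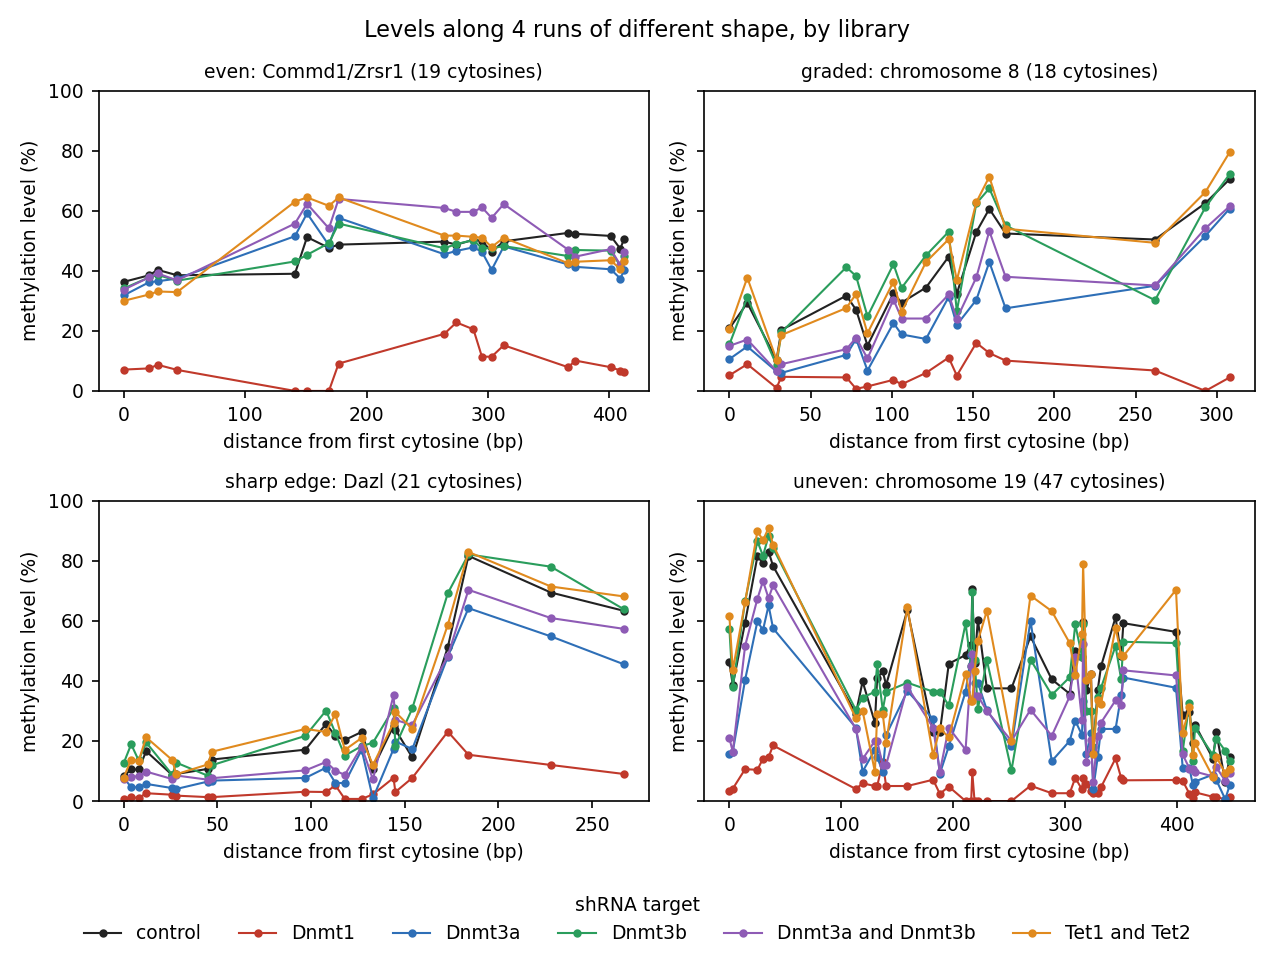
Methylation level (vertical axis, %) of each cytosine against its distance from the first cytosine of the run (horizontal axis, bp) in 4 members, with 1 line per library. The Commd1/Zrsr1 member runs level, the chromosome 8 member climbs, the Dazl member steps up near its right end, and the chromosome 19 member goes up and down; the red Dnmt1 line is lowest at most cytosines.

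The sequence next to a CpG went with its level inside a member. Reading each cytosine on its own strand, with the bases before and after, CpGs in TNCGC (T, any base, CG, C; 597 cytosines in 502 members) were 12.0 points above the mean of their run (SD over autosomes 2.29), on 19 of 19 autosomes, and 86.6% of them were above it. CpGs in CACGT (162 cytosines) were 7.70 points below the mean of their run (SD 4.90), on 16 of 19 autosomes. CACGT ranked 6th from the lowest of the 64 contexts. All 4 forms of TNCGC were the highest of the 64 contexts, by 13.9 points for TACGC, 11.9 for TCCGC, 11.8 for TGCGC and 11.8 for TTCGC, while AACGT stood lowest at -10.2 points. These groupings were chosen after the values were seen.

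TNCGC cytosines were above the other cytosines in each of the 6 libraries. TNCGC cytosines of members had 54.2% in the control, 36.2% after Dnmt3a knockdown, 58.2% after Dnmt3b knockdown, 42.0% after the double Dnmt3 knockdown, 59.9% after Tet1 and Tet2 knockdown and 12.9% after Dnmt1 knockdown. Other cytosines of members had 42.4%, 26.1%, 44.7%, 29.9%, 47.9% and 7.67% in the same libraries. In the Dnmt1 library, whose level the rule did not use, TNCGC cytosines stood 3.96 points above the mean of their run and CACGT cytosines 0.71 points below it. In highly methylated runs TNCGC cytosines were 5.35 points above and CACGT cytosines 4.73 points below the run mean on the 5 libraries. In the Dnmt1 library CACGT cytosines of highly methylated runs were 0.96 points above it, so the low level of CACGT was not seen there. In the 502 members that held TNCGC, where it made up 14.3% of cytosines, the highest cytosine was in TNCGC in 256 (51.0%). The 64 contexts together accounted for 14.3% of the variance within members.

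Hormad1, in the sequence above, gives an example. Its 9 cytosines ranged from 9.64% to 50.2% on the mean of 5 libraries. The 3 highest were in TGCGC, at 50.2%, 49.1% and 48.5%, while another TGCGC cytosine had 32.9%, the fifth from the lowest. The lowest were both in CACGTG, at 9.64% and 11.8%. The lowest, 101 bp from the first cytosine, had 19% in the control, 8.30% in the Dnmt1, 6% in the Dnmt3a, 8.30% in the Dnmt3b, 5.40% in the double Dnmt3 and 9.50% in the Tet1 and Tet2 library. The TGCGC cytosine 4 bp before it had 49.1%, 10.6%, 42.0%, 72.9%, 30.4% and 56.5% in the same order. The 2 cytosines are on the same strand and so can share reads, and their levels did not overlap in the 5 libraries other than Dnmt1. The letters CACGTG, which read the same on both strands, were in the 300-base start windows of Slc25a31, Hormad1, Mael and Topaz1. They were not in those of Tmprss12, Dazl, Csf2ra, Lep and Commd1. Of all 32851 windows, 7.15% had them. The genes read were those with a sequence above and Dazl. Other germline genes near members, such as Ddx4, Hormad2 and Henmt1, were not read, so an excess over all windows was not tested. A match is a description of letters and not of a bound site.

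Slope and direction of graded members were set on the mean of 5 libraries, so their spans there are a description. Levels went up with the coordinate in 146 and down in 138. In some the slope was also a change of strand, as at chr1:137080563-137080711 and chr2:33400256-33400382 (mm9). There the left cytosines were on the plus and the right ones on the minus strand. The mean span from end to end was 35.6 points in the control, 30.2 after Dnmt3a knockdown, 36.2 after Dnmt3b knockdown, 31.0 after the double Dnmt3 knockdown and 35.6 after Tet1 and Tet2 knockdown. In the Dnmt1 library the span was 6.45 points, and it had the direction of the 5-library mean in 233 of 284 members (82.0%). The member with 18 cytosines at chr8:124277442-124277750 (mm9) had cytosines from 8.48% to 68.9%, and run levels of 37.6% in the control, 5.81% in Dnmt1, 24.1% in Dnmt3a, 40.5% in Dnmt3b, 28.0% in the double Dnmt3 and 41.3% in the Tet1 and Tet2 library. Among graded members that with the most cytosines, 19 at chr11:16160701-16161063, went the other way along the chromosome and was unusual in its Dnmt3b level: 37.1%, 5.72%, 27.0%, 54.99%, 18.0% and 38.8% in the same library order.

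The 32 sharp edges were set on the same mean of 5 libraries. In the Dnmt1 library the higher side was also the higher one in 29 of 32. The higher side averaged 71.1% ± 11.8 (SD over 32 members) and the lower side 23.7% ± 14.2 in the control. After Dnmt3a knockdown the sides were at 56.8% and 12.5%, which is 79.98% of the control on the higher and 52.8% on the lower side. The double Dnmt3 knockdown left 87.2% and 60.6% of the control on the same sides. The Dnmt3b knockdown stood at 75.6% and 23.6%, and the Tet1 and Tet2 knockdown at 77.6% and 27.1%. In the Dnmt1 library the sides were at 17.3% and 4.47%, or 24.3% and 18.9% of the control. The gap across the edge was a median of 42 bp (2 to 100 bp) and was the widest gap of the member in 17. In 8 members the edge was also a change of strand, where the sides come from different fragments or reads, and in 5 both sides lay on a single strand.

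**Figure D3:**
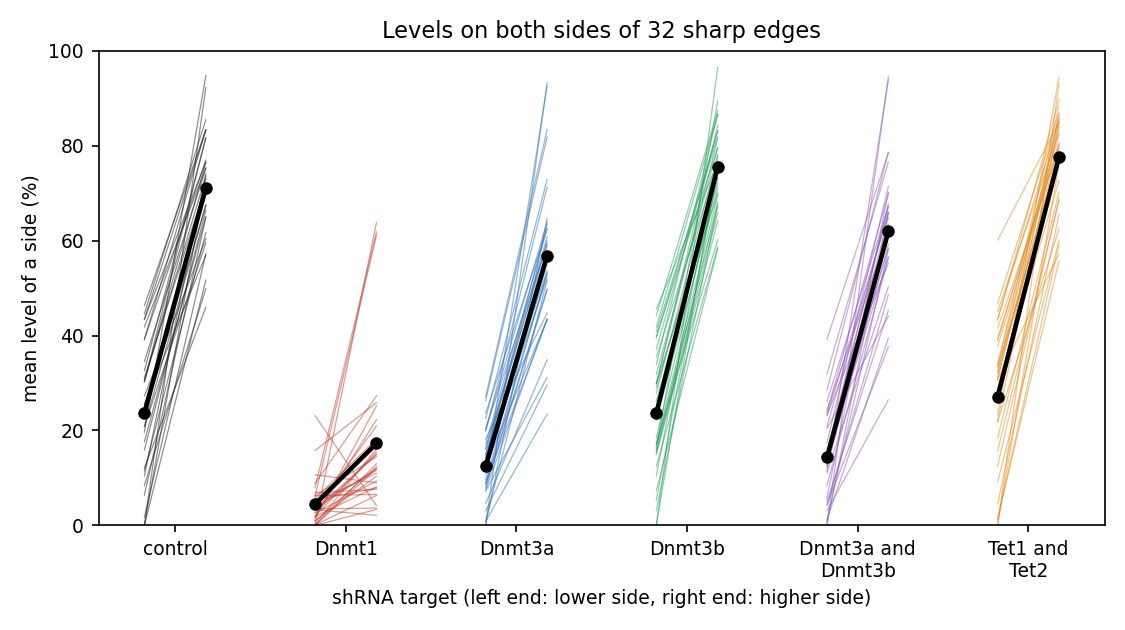
Mean level (vertical axis, %) of the lower side (left end of each line) and the higher side (right end) of the 32 members with a sharp edge, by library (horizontal axis); thin lines are members and the black line joins the means. The step from 23.7% to 71.1% in the control becomes one from 4.47% to 17.3% in the Dnmt1 library.

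Dazl, which encodes an RNA-binding protein of germ cells, had an edge downstream of its start. Its member of 21 cytosines at chr17:50432300-50432567 (mm9) lay 378 to 645 bp after the start, with the higher side nearer to it. Its 17 lower cytosines averaged 15.9% in the control, 2.68% in the Dnmt1, 8.68% in the Dnmt3a, 18.4% in the Dnmt3b, 12.9% in the double Dnmt3 and 18.4% in the Tet1 and Tet2 library. Its 4 higher cytosines averaged 66.4%, 14.9%, 53.2%, 73.3%, 59.2% and 70.3%. The gap between the sides was 19 bp, with both strands read on each side, and the sides did not come near each other outside the Dnmt1 library. Csf2ra (9 cytosines, chr19:61304415-61304539) had a lower side of 11.5% and a higher side of 61.7% in the control, and 4.60% and 34.9% after Dnmt3a knockdown, across 25 bp. Its lower side was the 4 cytosines farther to the left on the chromosome, which in the sequence above are the last 4 capital CpGs, since the gene is on the minus strand.

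Other edges lay at Snai1, a transcription factor of epithelial to mesenchymal transition, at Rarb, a retinoic acid receptor, at Hormad2, a meiotic axis protein, and at Tlk2, a kinase. On the mean of its 9 cytosines, the Snai1 member (605 bp after the start) changed little between the libraries other than Dnmt1. It had 41.6% in the control, 5.59% in Dnmt1, 35.3% in Dnmt3a and 43.9% in Dnmt3b. The double Dnmt3 library had 34.8% and the Tet1 and Tet2 library 42.4%. Its edge was less steep in the Tet1 and Tet2 library, where the sides moved in opposite directions. There the higher side had 57.15% against 67.55% in the control, and the lower side 30.62% against 20.8%. Both sides were lower than the control in the Dnmt3a and double Dnmt3 libraries, and both were higher in the Dnmt3b library. The Rarb member had only 5 cytosines and the widest gain in the Tet1 and Tet2 library of these, 50.3% against 25.6% in the control. The edge member at chr9:14649714-14650026 was unusual in the Dnmt1 library, with 28.1% left over its 16 cytosines against 55.7% in the control.

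The Dnmt1 library, whose level the rule did not use, was lower than the control in 1633 of 1634 members, by a mean of 35.7 points (mean difference -35.7 ± 1.61, SD over 19 autosomes). In 1461 members the fall passed the fixed size used here as a call, at least 20 points with at least 80% of the cytosines in the same direction. Over all 22524 runs 22.9% were called, a share that counts the many low runs that had no 20 points to lose, and among highly methylated runs 3666 of 3693 were called. The level left had a median of 18.5% of the mean of the other 5 libraries in members (quartiles 13.6% and 25.1%) and 22.0% in highly methylated runs. The median was 19.7%, 18.3%, 18.0% and 17.7% from the lowest to the highest level group of members. By shape it was 18.4% in even, 18.2% in graded, 20.4% in sharp-edged and 18.6% in uneven members. No member was higher by the call, where 0% of all runs were called.

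The largest falls among members of at least 8 cytosines came from the upper part of the range. At chr7:31740312-31740422 the levels were 62.8% in the control, 2.26% in Dnmt1, 23.3% in Dnmt3a, 43.6% in Dnmt3b, 33.2% in the double Dnmt3 and 58.6% in the Tet1 and Tet2 library. The same run had the largest fall of such members in the Dnmt3a and Dnmt3b libraries too, and all its values share the 1 control library. At chr2:131886479-131886603 they were 69.5%, 9.14%, 30.3%, 71.2%, 52.1% and 74.6%. The smallest fall among them was at chr9:75195691-75195900 (17 cytosines, even), with 22.2%, 12.2%, 7.48%, 35.9%, 14.5% and 22.8%. There the Dnmt3a library, not the Dnmt1 library, was the lowest.

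A few short members kept a high level in the Dnmt1 library. In 19 it was above 25%, and 17 of these had 5 to 7 cytosines. In 12 of the 19, 1 or more cytosines stood at or above 80% in all 6 libraries. Such cytosines numbered 15 in all members together, in 13 members. At chr5:147972545-147972555, a run of 6 cytosines in 11 bp, levels were 48.6%, 47.8%, 48.5%, 48.2%, 48.4% and 49.1%, an average of cytosines from 0% to 100%. At chr1:194295386-194295429 they were 54.7% in the control, 52.6% in Dnmt1, 49.8% in Dnmt3a, 59.9% in Dnmt3b, 56.3% in the double Dnmt3 and 57.1% in the Tet1 and Tet2 library. In these 2 runs the Dnmt1 library was within 3 points of the control.

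After Dnmt3a knockdown the members were at 61.8% of the control and highly methylated runs at 89.0%. The mean difference was -16.7 ± 0.80 points in members and -9.30 ± 0.61 in highly methylated runs, and 1621 of 1634 members were lower. The call was passed by 495 members (30.3%) downward, beside 3.36% of all runs, and by none upward (0%). Most of all runs were low runs, of which 0.0174% were called lower. Among highly methylated runs 258 of 3693 (6.99%) were called lower. The rule used both libraries of this contrast, so these values only describe the set. When runs were instead chosen on the Tet1 and Tet2 and the Dnmt3b library alone, which leaves the control and Dnmt3a libraries out of the choice, 1631 runs between 20% and 60% were at 57.5% of the control after Dnmt3a knockdown (-14.7 ± 0.84 points). The 4064 runs at 60% or more were then at 87.5% (-10.3 ± 0.77 points). This choice was added after the data were seen.

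The share of the control left in the Dnmt3a library is given by level group as a description, since the grouping mean contains both libraries. It was 51.2% in members between 20% and 30%, 58.1% between 30% and 40%, 62.7% between 40% and 50% and 68.9% between 50% and 60%. In points the differences were -13.6, -16.4, -18.7 and -18.7. For Dnmt1 the shares were 19.5%, 17.3%, 18.2% and 18.7%.

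**Figure D4:**
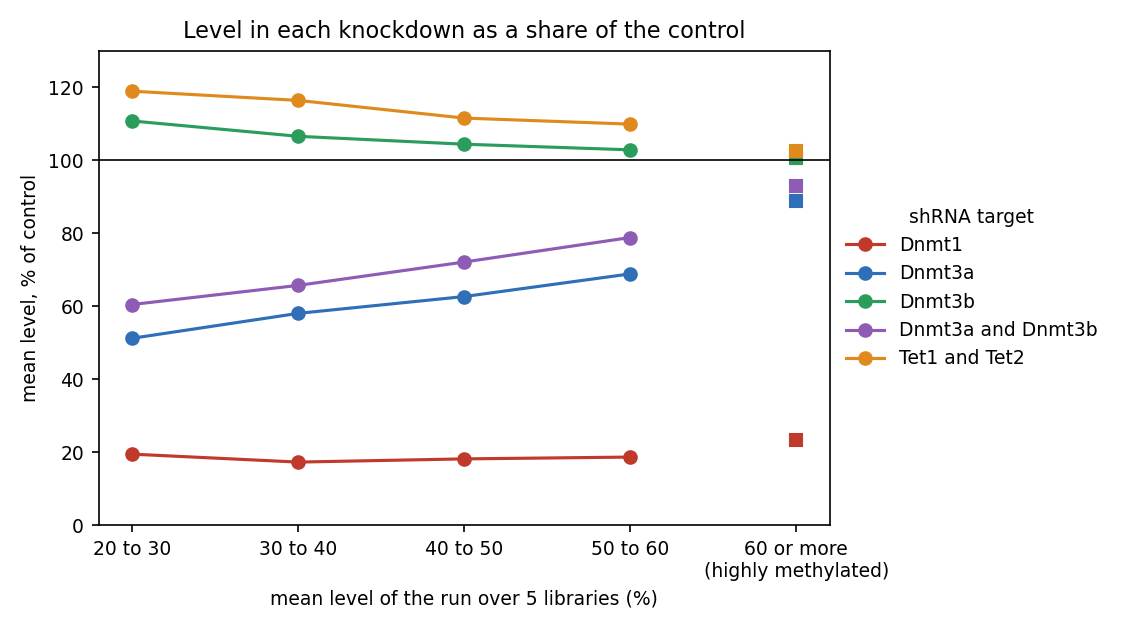
Mean level in each knockdown library as a percentage of the control level (vertical axis) for members grouped by their mean level over 5 libraries (horizontal axis, %), with highly methylated runs as squares. The Dnmt3a line climbs from 51.2% to 68.9%, and the Dnmt1 line stays between 17.3% and 19.5%.

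The double Dnmt3a and Dnmt3b knockdown was lower than the control by less than the Dnmt3a knockdown. Its mean difference from the control was -12.7 ± 1.04 points, with 228 members (14.0%) called lower, beside 1.29% of all runs, and 0 called higher, beside 0.00444%. Among highly methylated runs 61 of 3693 (1.65%) were called lower. Set against the Dnmt3a library directly, it was higher by 4.03 ± 0.76 points, in 1247 of 1634 members and on 19 of 19 autosomes. In highly methylated runs this difference was 3.35 ± 0.43 points. How far each target was depleted in the 2 libraries was not measured here. At chr15:83332669-83332766, the largest fall of the double knockdown among members of at least 8 cytosines, the levels were 69.7% in the control, 14.7% in Dnmt1, 33.3% in Dnmt3a, 72.2% in Dnmt3b, 38.6% in the double Dnmt3 and 81.9% in the Tet1 and Tet2 library. At chr3:107671410-107671447, by contrast, the double knockdown (62.2%) was above the control (58.8%) while Dnmt3a alone was at 27.2%.

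The Dnmt3b knockdown library differed little from the control: 2.39 ± 0.92 points higher on average, with 1073 members higher and 560 lower. Within 5 points of the control were 860 members. The call was passed upward by 12 members (0.734%), beside 0.0799% of all runs, and downward by 3 (0.184%), beside 0.0222%. Among highly methylated runs it was passed upward by 2 (0.0542%) and downward by 2. At chr10:97156517-97156623 the level was 63.3% after Dnmt3b knockdown and 43.8% in the control, the largest gain of a member with at least 8 cytosines. The member upstream of Gm32465 (11 cytosines, even) had 19.8% in the control, 6.33% in Dnmt1, 5.31% in Dnmt3a, 38.8% in Dnmt3b, 13.7% in the double Dnmt3 and 25.3% in the Tet1 and Tet2 library.

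After Tet1 and Tet2 knockdown members were higher by 5.84 ± 0.85 points, in 1351 of 1634. Highly methylated runs were 2.24 ± 0.38 points higher. The call was passed upward by 37 members (2.26%), beside 0.222% of all runs, and downward by 3 (0.184%), beside 0.0178%. Among highly methylated runs it was passed upward by 8 (0.217%) and downward by 1. Among members of at least 8 cytosines the largest gain was at chr5:116000271-116000376 (9 cytosines), with 47.9% in the control, 12.1% in Dnmt1, 56.4% in Dnmt3a, 64.5% in Dnmt3b, 42.9% in the double Dnmt3 and 72.0% in the Tet1 and Tet2 library, where the Dnmt3a library too stood above the control. At the start of Sprn, which encodes the prion-like protein Shadoo, the levels were 18.5%, 3.20%, 9.41%, 25.5%, 12.2% and 40.3%. The falls of such members were smaller. The largest was at chr18:13131728-13132015 (17 cytosines, even), with 35.5%, 5.80%, 26.8%, 28.5%, 31.9% and 25.7%. At chr11:79465960-79466067 the levels were 57.1%, 4.38%, 22.9%, 53.5%, 29.9% and 48.2%, and at chr7:150481374-150481523 they were 47.6%, 11.0%, 37.8%, 36.9%, 39.0% and 38.8%. In each of these runs the control was the highest of the 6 libraries, so the fall was not particular to the Tet1 and Tet2 library.

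**Figure D5:**
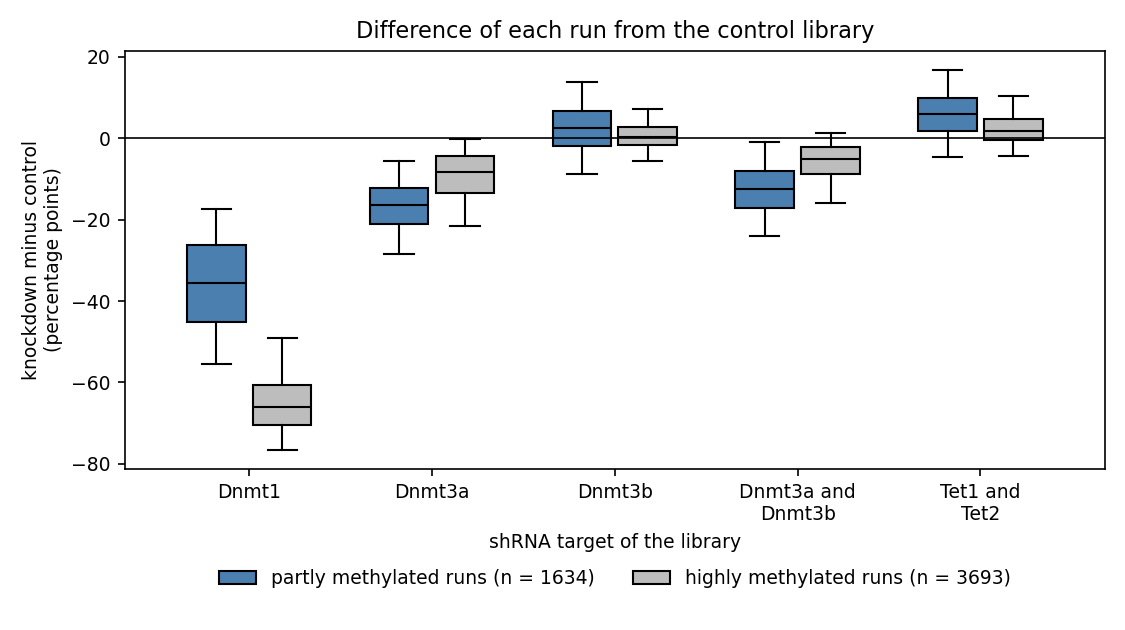
Difference of each run from the control library (vertical axis, percentage points) in each knockdown library (horizontal axis) for the 1634 partly methylated and the 3693 highly methylated runs; boxes span the quartiles with the median as a line, whiskers the 5th to 95th percentile, and the horizontal line marks 0. The partly methylated runs lie closer to 0 than the highly methylated ones for Dnmt1 and farther below it for Dnmt3a.

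For the larger mean differences the direction of change was the same on both DNA strands in most members, but its size was only loosely shared. Among the 643 members with at least 3 cytosines on each strand, both strands were lower in 639 after Dnmt1, 620 after Dnmt3a and 586 after the double Dnmt3 knockdown. Both were higher in 415 after Tet1 and Tet2 and in 300 after Dnmt3b knockdown, where the strands went opposite ways in 173 and 225. Pearson's r between the strands' differences from the control was 0.44 for Dnmt1, 0.28 for Dnmt3a and 0.23 for the double Dnmt3 knockdown. It was 0.36 for Dnmt3b and 0.22 for Tet1 and Tet2. A shared direction therefore says little about the size of the change in a single member. A fall of at least 20 points on each strand was seen in 476, 82 and 28 members for Dnmt1, Dnmt3a and the double Dnmt3 knockdown. A gain of that size on both strands was seen in none for Tet1 and Tet2 and in 1 for Dnmt3b. At 321 CpGs of members read on both strands, the SD of the difference between strands was 13.2 points in the control. This is the spread of a difference between single cytosines, and not the scatter of a single level. By shape, the strands' mean levels were a median of 4.79 points apart in even, 17.8 in graded, 31.3 in sharp-edged and 9.33 in uneven members.

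Members that kept their level in all libraries other than Dnmt1 were few. The range over the 5 libraries had a median of 24.98 points, and in 43 members (2.63%) it was at most 10 points. Of these 21 had at least 8 cytosines, and 11 of those were even. The only ones of the even members that a gene name could be given to were at Commd1 with Zrsr1, an imprinted gene pair in which Zrsr1 lies within Commd1, and at Ddx4, a germline RNA helicase. The Zrsr1 start member (9 cytosines, chr11:22871999-22872128) had 36.3% in the control, 5.86% in Dnmt1, 36.0% in Dnmt3a, 36.7% in Dnmt3b, 34.2% in the double Dnmt3 and 33.4% in the Tet1 and Tet2 library. The neighbouring member (19 cytosines, chr11:22872581-22872993) had 46.8%, 9.41%, 43.9%, 45.02%, 51.1% and 47.3%, with cytosines from 33.2% to 58.1%. It was also the largest gain of the double Dnmt3 knockdown among members of at least 8 cytosines, at 4.33 points.

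Further even and steady members had no gene name matched. At chr1:63247011-63247132 (9 cytosines) the levels were 39.97%, 7.49%, 39.1%, 40.9%, 38.2% and 40.3% in the order control, Dnmt1, Dnmt3a, Dnmt3b, double Dnmt3, Tet1 and Tet2. At chr2:174124993-174125155 (10 cytosines) they were 52.7%, 7.77%, 45.6%, 50.7%, 48.4% and 49.2%, and at chr2:174123520-174123795 (13 cytosines) 55.7%, 18.97%, 52.3%, 56.8%, 50.02% and 57.2%. In all of these the Dnmt1 library stood far below the other 5, and the other 5 lay close together. At chr6:58856628-58856872 (17 cytosines) they were 31.0%, 6.46%, 31.2%, 33.2%, 30.9% and 27.5%. The steady set was chosen by its range, so its narrow range is no finding.

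Few members lay near a gene start that could be placed. RefSeq start windows were put on the deposited positions by the bases and spacing of their cytosines. Of 31396 autosomal windows this placed 7412, of 6656 genes. Within 1000 bp of such a start lay 75 members (4.59%), against 7929 low runs (46.1%) and 44 highly methylated runs (1.19%). A window needed at least 5 listed cytosines, so starts with fewer could not be placed. The shares of the classes depend on that rule and were not corrected for it. The 75 members were near 78 genes: 18 lay across the start, 29 upstream and 28 downstream. All 75 were lower in the Dnmt3a library than in the control, with a mean difference of -12.97 points, from a control mean of 36.6%. The members not near a placed start differed by -16.9 points from 44.1%.

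The starts were also read against 3 gene lists. Of 26 germline genes, 14 had a placed start, and 6 of these were near a member: Dazl, Ddx4, Hormad1, Hormad2, Mael and Slc25a31. Of the same 14, 6 were near a highly methylated run and 3 near a low run, and Dazl was near all 3 kinds. Of 36 imprinted genes, 8 had a placed start, and Commd1 and Zrsr1 were near a member. Of the same 8, 7 were near a low run, Commd1 among them, and 0 near a highly methylated run. Of 49 developmental transcription factor genes, 10 had a placed start, all 10 were near a low run and 0 near a member. Over all 6656 genes with a placed start, 78 were near a member, so 0 of 10 does not set this list apart. The share of all placed genes near a low run was not counted.

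The germline members differed in level and shape, and in all of them the Dnmt1 level was the lowest of the 6. Slc25a31 (22 cytosines from 296 bp before to 98 bp after the start, uneven) had 49.3% in the control, 9.73% in Dnmt1, 37.6% in Dnmt3a, 53.9% in Dnmt3b, 41.3% in the double Dnmt3 and 58.8% in the Tet1 and Tet2 library. Mael (22 cytosines, across the start, uneven) had 36.9%, 9.65%, 23.9%, 40.1%, 27.1% and 39.9%. Hormad1 (9 cytosines, upstream, uneven) had 36.6%, 7.37%, 23.0%, 38.8%, 21.4% and 39.6%. In each of these 3 the Dnmt3a and double Dnmt3 levels lay below the control and the Dnmt3b and Tet1 and Tet2 levels above it. Hormad2 (7 cytosines, across the start, with a sharp edge) had 39.0%, 10.6%, 25.8%, 38.3%, 37.5% and 52.2%. Ddx4 (9 cytosines, upstream, even) was lower and steadier, with 21.1%, 2.51%, 18.2%, 25.7%, 18.5% and 24.2%.

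Some other genes near members, picked after their values were seen, widen the range of functions. Topaz1 (10 cytosines across the start) had 52.6%, 15.8%, 31.6%, 59.7%, 48.8% and 55.2%, and Tmprss12 (6 cytosines) had 52.0%, 11.3%, 21.5%, 53.9%, 28.0% and 48.3%. Both are genes of the testis, as is Henmt1, which modifies piRNAs and had 28.6%, 6.76%, 21.5%, 38.4%, 27.5% and 36.0% over 17 cytosines. Lep (10 cytosines upstream of the start, even) had 53.1%, 9.38%, 36.8%, 59.7%, 39.9% and 58.8%. The 5 cytosines upstream of Cabp1, a neuronal calcium sensor, had one of the wider falls in the double knockdown, at 40.2%, 7.02%, 11.9%, 29.7%, 6.16% and 42.1%. There the double Dnmt3 level was below the Dnmt1 level, one of 7 members where the double Dnmt3 library was the lowest of the 6.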

How the data were processed

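The 6 files give, for each cytosine of a CpG, its mm9 position, strand, 5 surrounding bases and methylation level. Per the submitters' processing notes, CASAVA 1.8 and Bismark 0.10.1 were used with the mm9 build; not given in the sources used here are their settings, any coverage minimum and any treatment of the filled-in fragment ends. The level is a fraction from 0 to 1 with 3 decimals, as the authors deposited it, with no coverage, so the depth is unknown and no interval or count test could be made. The libraries list 444949 (Dnmt1) to 604092 (Tet1 and Tet2) cytosines, sex chromosomes included. On the autosomes 733073 cytosines are listed in at least 1 library, and 369208 are in all 6. Levels are printed here as percent. Cytosines of a run share reads and are not independent.

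Runs were built in pandas 2.3.3 (Python 3.11.15, NumPy 2.4.6), and shapes and calls were assigned by the fixed sizes given in the text. The code was tested on simulated data. There the shape rule was tried only on runs of at least 8 cytosines, a length that 550 of the 1634 members had. The shapes of shorter members rest on no such test. Differences are knockdown minus control in percentage points. The named regions are the 3 members with the most cytosines per shape, the 3 largest falls and gains per knockdown among members of at least 8 cytosines, the 2 runs on each side of each bound, and list genes; other names were chosen after their values were seen. No mm9 genome or annotation was used: RefSeq start windows (250 bases before to 50 after a start, GRCm38.p6) were placed by the bases and spacing of at least 5 listed cytosines, all matching, at a single place on the same chromosome and in the order of neighbouring windows. Placing windows that only partly overlap a run, and the sequence contexts, were added after the data were seen. Exons, introns and most gene names are therefore not given. Members and lists were chosen with earlier results of these data known. Alternatives included other gaps, bounds, cytosine minimums, strands, CCGG sites left out, and other call sizes.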

Additional observations from a re-analysis of the deposited data

How the results depend on the processing

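None of the alternatives for a mean difference turned its sign. Counts of members, calls and shapes have no sign to turn. Of all 119 alternatives, 84 left the value within 1.5 times the count or within the SD over autosomes, counts of 0 that stayed 0 among them. With at least 10 cytosines a run, 278 members remained, with mean differences of -32.7 (Dnmt1), -14.9 (Dnmt3a), -11.3 (double Dnmt3) and 4.54 points (Tet1 and Tet2), calls of 244, 56 and 17 lower for Dnmt1, Dnmt3a and double Dnmt3, 0 and 0 lower and higher for Dnmt3b, 0 and 2 for Tet1 and Tet2, and 91 even, 44 graded, 9 sharp-edged and 134 uneven members; fewer runs enter by construction. Without CCGG sites there were 774 members and the Dnmt1 difference was -33.9. Choosing members on the Tet1 and Tet2 and the Dnmt3b library alone, added after the data were seen, gave 1631 members and differences of -27.9 for Dnmt1 and -14.7 for Dnmt3a. A call size of 10 points gave 1348 (Dnmt3a) and 1033 (double Dnmt3) lower and 2 higher for double Dnmt3, 59 lower and 185 higher for Dnmt3b, and 15 lower and 359 higher for Tet1 and Tet2. A size of 30 points gave 64 and 17 lower for Dnmt3a and double Dnmt3, 0 and 0 for Dnmt3b and 3 higher for Tet1 and Tet2. An SD limit of 15 points made 1093 members even and 225 uneven, and a step of 30 points made 103 sharp-edged, so the shape counts depend on their limits. No paired analysis was possible because each group is 1 library and the labels carry no replicate numbers. The depth behind each level is unknown, and short members of 5 cytosines rest on the fewest values.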
